A study of Homo sapiens with 2 samples.

Results

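The genes that encode the mitochondrial respiratory chain were read from 2 expression arrays of SBC-3 cells. Members were taken by symbol, as every probe whose RefSeq accession is named NDUFA, NDUFB, NDUFC, NDUFS or NDUFV with a number, SDHA to SDHD, UQCR, COX4 to COX8 or ATP5 in the gene table used here. They came to 86 genes read by 106 probes, of 19062 named genes read by 24826 probes. By complex these were 37 genes of complex I, 4 of complex II, 9 of complex III, 17 of complex IV and 19 of complex V. A long noncoding RNA, NDUFB2-AS1, and a pseudogene, UQCRBP1, carry matching symbols and are among them. Of the 87 protein-coding genes with such a symbol in the table, 84 had a probe, and ATP5MF-PTCD1, NDUFC2-KCTD14 and UQCRHL did not.

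SBC-3 is an adherent small cell lung cancer (SCLC) line. One culture was transfected with #1 siHOTAIR, an siRNA against the long noncoding RNA HOTAIR, and the control with siGFP, whose target, green fluorescent protein, is absent from human cells. The Cy3-labelled RNA of each culture was read on its own Agilent array, 1 per condition, so no value here has a replicate and no test between the conditions was made. The siRNA, the culture and the array cannot be told apart. Both arrays held 62976 spots, 58717 of them not controls, and the software placed 55.5% of the spots of the #1 siHOTAIR array and 58.3% of those of the siGFP array well above background.

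Signals below are processed intensities as deposited, and a log2 ratio is the signal in #1 siHOTAIR-transfected cells over that in siGFP-transfected cells after each array was divided by its 75th percentile, 650.3 and 629.9. Probes entered the comparison if the software placed 50% or more of their spots well above background in either condition, and a gene with several probes is represented by the brightest of them. The measurement SD given with a ratio comes from probes spotted 10 times and covers repeat spots within an array, not repeat cultures. For single bright spots the scanner software estimated a larger error of 0.20. HOTAIR itself had a signal of 108 against 244, a log2 ratio of -1.22 with a measurement SD of 0.17, from 1 spot, and of -0.73 without background correction. The reference gene GAPDH had a ratio of -0.00 and ACTB of -0.02. Over all 13014 genes compared, the median was 0.02.

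Of the markers of the cell type, NEUROD1, a neurogenic transcription factor, had signals of 213 and 372, and CHGA, a granin of neuroendocrine granules, had 72.2 against 10.2 and cleared background on the #1 siHOTAIR array alone. The neuroendocrine factor INSM1 and the synaptic vesicle protein SYP were not well above background on either array, and 1 of 3 probes of the adhesion molecule NCAM1 cleared background, after #1 siHOTAIR only. Among markers of other cell types, the epithelial keratins KRT8 and KRT18 had 2825 and 2557, and 431 and 565, on their brightest probes, and the collagens COL1A2 and COL1A1 had 3758 and 3741, and 832 and 414. The leukocyte genes PTPRC and CD14 had 106 and 61.0 on the brightest probe, and 111 and 121. A dimmer probe of PTPRC had 12.0 against 20.7 and cleared background on the siGFP array only. The remaining PTPRC probes were not well above background on either array. EPCAM was well above background on the siGFP array only, whereas CDH1, the fibroblast genes DCN and LUM and the lymphocyte gene CD3E were not well above background. The part of other cell types in the values below was not tested.

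The respiratory chain sits in the inner mitochondrial membrane. Complex I (NADH dehydrogenase) and complex II (succinate dehydrogenase) pass electrons to ubiquinone, complex III (the cytochrome bc1 complex) hands them to cytochrome c, and complex IV (cytochrome c oxidase) gives them to oxygen. Complexes I, III and IV pump protons, and complex V (ATP synthase) lets them flow back to make ATP. Nuclear genes encode most subunits and all of complex II, and the mitochondrial genome encodes the remainder, for which no probe was matched here. The transcription factors NRF1, GABPA and YY1 are known regulators of many of them.

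The subunits stayed within 1.5-fold between the arrays, with 1 exception, where 8.12% of all genes compared were higher and 8.71% lower by as much. Of the 86 genes, 82 were compared and 81 were well above background on both arrays. A single gene, ATP5MC1 of complex V, was higher by 2-fold or more after #1 siHOTAIR and none was lower by as much, where 2.74% of all genes compared were higher and 3.41% were lower (6.15% either way). Counted by probe, 1 of 102 member probes was higher, where 3.3% of all 24117 probes were higher and 4.1% lower (7.4% either way). Among genes as bright as most subunits, more than 2 log2 units above the 75th percentile, 0.811% passed 2-fold in either direction, 0.454% higher and 0.357% lower. The log2 ratios of the members other than ATP5MC1 ran from -0.53 for COX7A2L to 0.40 for NDUFA5.

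Within that narrow range the subunits were mostly on the lower side. The median ratio of the 82 genes was -0.11, that is 0.13 log2 units under the median of all genes, and 60 of the 82 lay under the all-gene median, COX4I2 among them, whose signal in #1 siHOTAIR-transfected cells was not well above background. Their median measurement SD was 0.06, and 39 genes were lower and 7 were higher by more than 2 measurement SDs, where 25.7% and 28.7% of all 13014 genes were, so this measure passes many genes of the array. The ratio of all genes also moved with brightness. In genes 4 to 6 log2 units above the 75th percentile, the median was -0.02 for all genes and -0.13 for the 42 subunits, and above 6 units it was -0.06 for all genes and -0.15 for 18 subunits. From 2 to 4 units it was 0.03 and, for 18 subunits, -0.06. The subunits therefore stayed lower than genes of like signal in each of these 3 ranges. The 60 member spots in the first 144 of 384 rows had a median of -0.12, and the 102 in the other rows also -0.12.

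**Figure D1:**
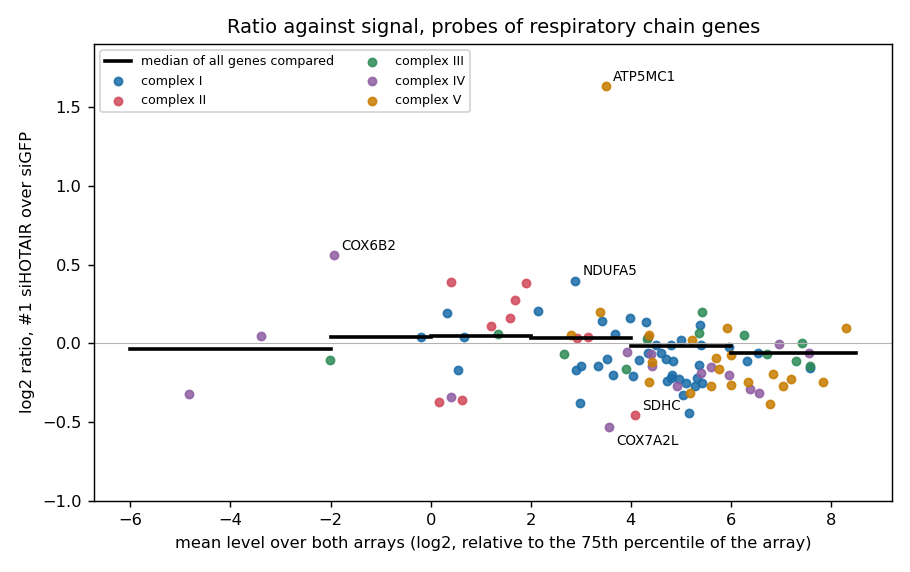
Log2 ratio (#1 siHOTAIR over siGFP) of each respiratory chain probe against its mean level over both arrays, in log2 units relative to the 75th percentile, coloured by complex. Black lines are the medians of all genes compared in 6 ranges of level; most subunits sit to the right, under the line, and ATP5MC1 stands alone at 1.63.

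The direction of the group holds against other genes and not in absolute terms. When both arrays were scaled to the spike-in RNA, the median of all genes was 0.19 and that of the subunits 0.05, so the subunits then lay slightly above 0 while the gap to all genes stayed at 0.13. This scaling raises every ratio by the same amount, and signs given against 0 below are those of the 75th percentile scaling. Under the 14 alternatives tried, spike-in scaling among them, the gap between the subunits and all genes ran from -0.22 to -0.09.

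**Figure D2:**
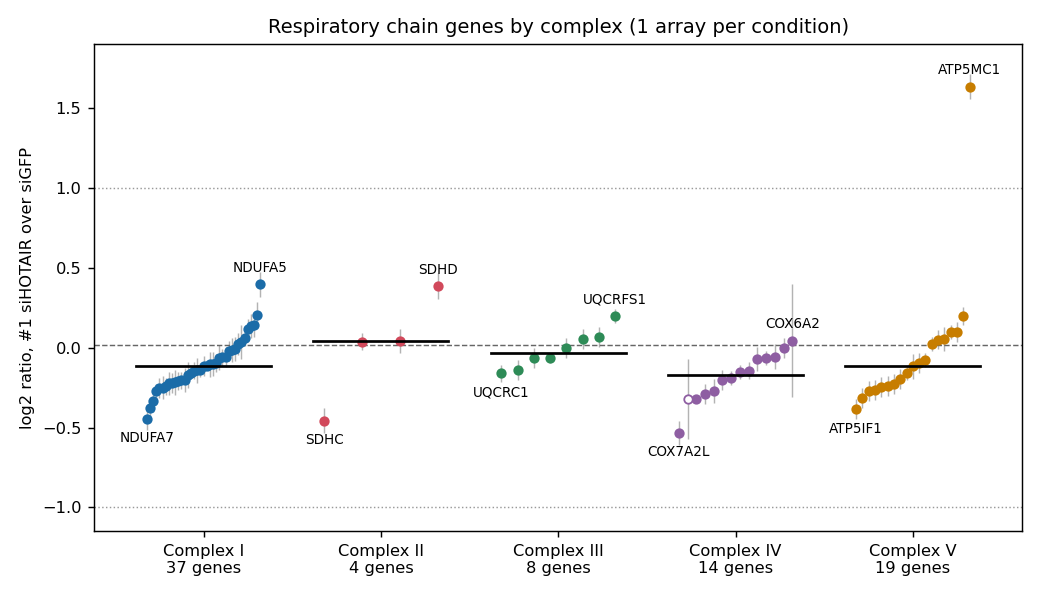
Log2 ratio of each compared gene by complex, with 1 point a gene, ordered within a complex, and bars of 1 measurement SD; the open point is COX4I2, well above background on the siGFP array only. Thick lines are the medians (-0.12, 0.04, -0.03, -0.17 and -0.12 for complexes I to V), the dashed line is the median of all genes and dotted lines mark 2-fold.

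Complex I had 37 genes compared, with a median of -0.12, and 29 of them were under 0. The catalytic core that binds flavin and the iron-sulphur clusters was read from 7 nuclear genes, of which 6 were under 0, with a median of -0.21. NDUFV1, which carries the flavin and the NADH site, had 23177 against 27050, a ratio of -0.27, and its partner NDUFV2 had 15864 against 18159, a ratio of -0.24. NDUFS1, the largest iron-sulphur subunit, had 9942 against 11127 (-0.21). NDUFS7 and NDUFS8, which hold the last clusters before ubiquinone, had -0.15 and -0.20. NDUFS3 was the only core gene above 0, with 8551 against 7935 (0.06). All but NDUFS3 were lower by more than 2 measurement SDs, as were 25.7% of all genes.

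The 29 accessory subunits, which surround and stabilize the core, had a median of -0.11, and 23 were under 0. NDUFA7 was the lowest gene of the complex, with 20068 against 26441 (-0.44), and NDUFB4 had -0.33. NDUFA5 was the highest, with 5517 against 4062 (0.40, measurement SD 0.08), and NDUFA9 followed with 3076 against 2584 (0.21). NDUFA5 and NDUFA7 were each read from 1 spot. All 10 spots of NDUFS5 were lower, from -0.21 to -0.06. Of the 10 spots of NDUFS6, 9 were lower, from -0.22, and the remaining one was at 0.18. By symbol stem, the medians were -0.08 for 12 NDUFA genes, -0.12 for 11 NDUFB, -0.24 for 2 NDUFC, -0.15 for 8 NDUFS and -0.24 for 3 NDUFV genes. The noncoding NDUFB2-AS1 had 575 against 543 (0.04), and NDUFB2 had -0.12. NDUFAB1, the acyl carrier protein that is a subunit outside the symbol rule, had -0.05.

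In complex II the median of 0.04 covered opposite ratios of its pair of membrane anchors. SDHA and SDHB form the catalytic head, with the flavin and the iron-sulphur clusters, and SDHC and SDHD anchor it in the membrane and build the ubiquinone and haem site. SDHC was lower on each of its 3 probes, with 9372 against 12460 (-0.46), 887 against 1104 (-0.36) and 642 against 804 (-0.37). SDHD was higher on each of its 3 probes, with 2789 against 2069 (0.38), 2307 against 1846 (0.28) and 980 against 725 (0.39). The ranges of the probe ratios of SDHC and of SDHD do not overlap. Each ratio exceeds 2 measurement SDs, as did those of 28.7% of all genes upward and 25.7% downward, but this covers repeat spots only, and of the 6 ratios only the -0.46 of SDHC exceeds 2 of the software's SDs of 0.20. The single spots say the same, from -0.46 to -0.34 for the 4 spots of SDHC and from 0.27 to 0.39 for the 4 of SDHD. SDHA ran from 0.03 to 0.16 over 4 probes, with 13344 against 12556 (0.04) on the brightest and 2061 against 1783 (0.16, measurement SD 0.06) on the highest. The 2 spots of SDHB gave 0.05 and 0.03. Under every alternative tried, SDHC stayed under 0 (-0.49 to -0.29) and SDHD above it (0.26 to 0.55). Neither reached 1.5-fold, and the probes of a gene share 1 RNA sample per condition.

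**Figure D3:**
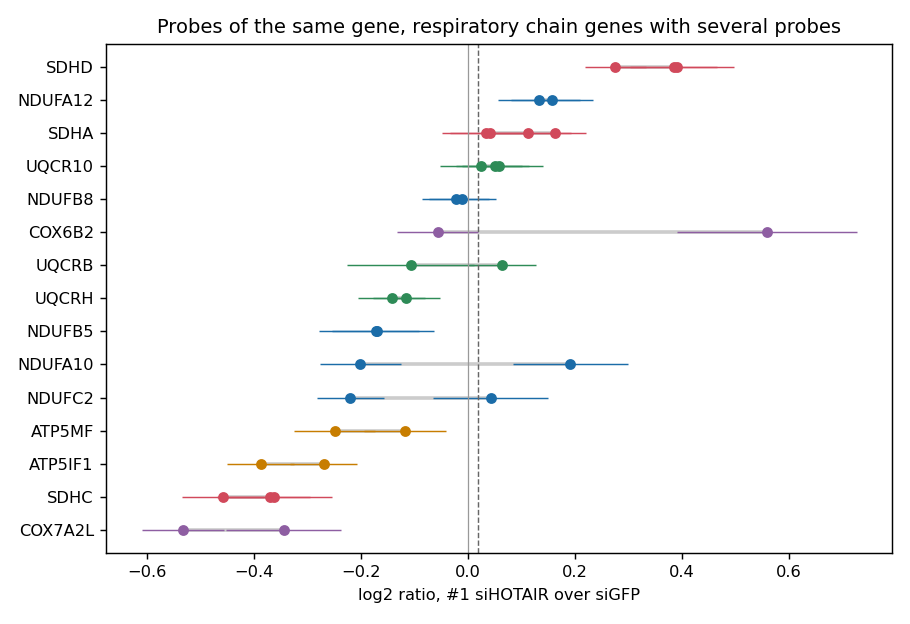
Log2 ratio of each probe (points, with bars of 1 measurement SD) for the 15 respiratory chain genes with several compared probes. The 3 probes of SDHD lie between 0.28 and 0.39 and the 3 of SDHC between -0.46 and -0.36, while those of COX6B2 lie 0.61 apart.

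SDHA and SDHD are shown by their promoters because both hold matches to the site of NRF1, a regulator of respiratory genes, SDHA in a repeated series and SDHD once beside a GABPA site, although their ratios differ. The windows are from RefSeq on GRCh38.p14, on the plus strand, 200 bases long and ending 10 bases after the annotated start. In SDHA the capitals mark the NRF1 motif (GCGCA, any base, then GCGC), and in SDHD that motif and then CCGGAAG (GABPA, here read on the opposite strand).
SDHA at chr5:218130-218329: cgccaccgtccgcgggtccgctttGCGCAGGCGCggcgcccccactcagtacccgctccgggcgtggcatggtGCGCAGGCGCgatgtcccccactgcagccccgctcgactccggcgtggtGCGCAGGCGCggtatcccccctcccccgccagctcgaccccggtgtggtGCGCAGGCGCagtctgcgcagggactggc
SDHD at chr11:112086683-112086882: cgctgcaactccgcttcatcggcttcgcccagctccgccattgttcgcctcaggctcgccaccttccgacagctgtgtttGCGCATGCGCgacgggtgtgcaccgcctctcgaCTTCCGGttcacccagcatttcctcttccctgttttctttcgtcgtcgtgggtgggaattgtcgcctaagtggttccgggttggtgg
The NRF1 matches of SDHA begin 166, 117, 68 and 19 bases before the start, and that of SDHD 110 bases before it, with the GABPA match at 77 bases. Whole RefSeq promoter windows, which reach further on both sides than those printed, were searched on both strands for these motifs and for AAGATGGC (YY1), and 70 of the 86 members had an entry. The NRF1 motif was in 17 of the 70 (24.3%) and in 6.28% of all 27305 promoters. GABPA was in 20 (28.6%, against 10.7% of all) and YY1 in 11 (15.7%, against 3.03%). At least 1 of the 3 motifs was in 39 of the 70, or 55.7%, against 17.9% of all. The median ratio was 0.05 for the 16 compared genes with the NRF1 motif and -0.13 for the 52 without it. It was -0.14 and -0.09 for GABPA and -0.11 and -0.08 for YY1. By complex the NRF1 motif was in 6 of 32 promoters of complex I, 2 of 3 of complex II, 4 of 7 of complex III, 1 of 14 of complex IV and 4 of 14 of complex V, so the split by motif is also in part a split by complex. SDHC and ATP5MC3 were among the members without a promoter entry, so their promoters were not searched. A match is a run of letters and not a measured site.

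Complex III lay close to all genes, with a median of -0.03 over 8 compared genes and 5 of them under 0. Differences between complexes were not tested. UQCRFS1, the Rieske iron-sulphur protein that passes electrons to cytochrome c1, was the highest, with 29839 against 25196 (0.20, measurement SD 0.04), and its 2 spots agreed at 0.20 and 0.20. The core proteins UQCRC1 and UQCRC2, which face the matrix, had -0.16 (9167 against 9924) and -0.07 (4020 against 4078). Of the 9 spots of UQCRC2, 8 were lower. The small subunits ran from -0.14 for UQCRH to 0.06 for UQCRB. Complex III lay above all genes, by 0.03, after quantile normalization and, by 0.02, after the trend with signal was removed. CYC1, the haem subunit of the complex that the symbol rule leaves out, had -0.11. The pseudogene UQCRBP1 was not well above background on either array.

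Complex IV had the lowest median of the complexes, -0.17 over 14 compared genes, 13 of them under 0. COX4I2, well above background on the siGFP array only, is counted among the 13 at its own dim signal, so its direction is not known. At its bound its ratio was 0.54, above 0, and the median of the complex was -0.15. The order was not fixed, since complex V was lowest, at -0.16 against -0.15 for complex IV, both with another background correction (normexp) and with none, and complexes I and IV were level at -0.11 once the trend with signal was removed. All 11 ubiquitous subunits were under 0 and under the all-gene median, with a median of -0.19, and 8 of them by more than 2 measurement SDs (25.7% of all genes were lower by as much). COX4I1, a subunit bound to the catalytic core, had 25741 against 28395 (-0.19). COX7C had -0.32 from 9 spots, all of them lower, from -0.39 to -0.25. COX7A2 had 49028 against 58158 (-0.29) and COX7B had 17999 against 21037 (-0.27). COX8A was at -0.00, COX6A1 at -0.06 and COX5A at -0.07. COX7A2L, which joins complexes III and IV into supercomplexes, was the lowest gene of the whole chain, with 6420 against 8993 (-0.53, measurement SD 0.08). Its second probe had 765 against 940 (-0.34), in the same direction.

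Of the 6 isoforms of complex IV known from heart, muscle, lung or testis, 3 were not well above background on either array. COX7A1, the heart and muscle partner of COX7A2, had signals of 15.5 and 16.1. The testis isoforms COX7B2 and COX8C had 8.22 and 6.21, and 9.57 and 35.3. None of these 3 was well above background, so no fold change is given. COX4I2, the lung isoform, had 20.5 against 24.8 and was well above background on the siGFP array only. COX6A2, the heart and muscle isoform, was just detected with 62.7 against 58.9 (0.04, measurement SD 0.35). COX6B2, a testis isoform, was the brightest of the 6, with 9736 against 9806 (-0.06) on its brighter probe. Its dimmer probe read 208 against 137 (0.56), and the 2 probes disagree by more than their measurement SDs of 0.08 and 0.17. COXFA4, formerly NDUFA4 and now counted with complex IV, carries a symbol outside the rule and had 56569 against 62110 (-0.18). Its relative COXFA4L2 was not well above background.

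In complex V the median was -0.12 over 19 genes, with 12 under 0, and -0.14 over the 18 genes without ATP5MC1. The parts of the enzyme lay on both sides of 0, a spread that was not tested. Of the 5 genes of the F1 head, where ATP is made, 4 were above 0, with a median of 0.10. ATP5F1A and ATP5F1B, the alpha and beta subunits, had -0.08 (40364 against 41228) and 0.10 (40642 against 36758). ATP5F1D, the delta subunit of the central stalk, was at 0.20 (7272 against 6138), ATP5F1E at 0.10 and ATP5F1C at 0.05. The peripheral stalk, which holds the head still, was lower in 3 of 4 genes, with a median of -0.20, from -0.27 for ATP5PD to 0.02 for ATP5PB. The 6 small membrane subunits had a median of -0.18, with 5 under 0, among them ATP5MG at -0.24 and ATP5MGL at -0.32. Both are close copies, and cross-hybridization between them was not tested. ATP5IF1, the inhibitor that blocks ATP hydrolysis, was the lowest of the complex, with 62672 against 79386 (-0.39) on one probe and 28737 against 33544 (-0.27) on the other.

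ATP5MC1 was the exception among all members. It is 1 of 3 nuclear genes, with ATP5MC2 and ATP5MC3, that encode the same mature c subunit, whose ring turns in the membrane as protons pass, and they differ in the peptide that directs import. ATP5MC1 (NM_005175) gave a signal of 12939 after #1 siHOTAIR and 4039 after siGFP. This is a log2 ratio of 1.63 or 3.10-fold, with a measurement SD of 0.08. ATP5MC2 had 69707 against 77461 (-0.20) and ATP5MC3 had 87948 against 99641 (-0.23). ATP5MC1 was thus higher while the other two were slightly lower. Under the 14 alternatives tried the ratio ran from 1.57 to 1.80. Among the 3084 genes more than 2 log2 units above the 75th percentile it was the 3rd highest, after VGF (1.78) and TMED5 (1.74). ATP5MC1 was read from 1 probe with 1 spot, in row 188, and no second spot or probe was there to check it. Of the 1757 genes at that brightness read from 1 spot, 0.968% passed 2-fold in either direction, 0.455% higher and 0.512% lower.

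The ATP5MC1 promoter is printed because the ratio of its gene stood apart from the rest of the chain. It held none of the NRF1, GABPA and YY1 motifs. The motifs marked in capitals were chosen after the sequence was read, and are CCAAT (the CCAAT box), TGACGTCA (the CREB and ATF site) and CACGTG (the E-box). The window is from RefSeq on GRCh38.p14, plus strand, ending 10 bases after the start.
ATP5MC1 at chr17:48892597-48892796: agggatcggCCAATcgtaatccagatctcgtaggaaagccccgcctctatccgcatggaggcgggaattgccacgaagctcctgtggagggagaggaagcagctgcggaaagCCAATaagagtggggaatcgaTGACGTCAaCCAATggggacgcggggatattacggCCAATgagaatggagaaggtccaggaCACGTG
CCAAT begins 181, 78, 48 and 22 bases before the start, TGACGTCA 57 bases before it and CACGTG 4 bases after it. On either strand, at least 4 CCAAT matches were in 1.06% of all promoters and in 3 of the 70 members. TGACGTCA was in 1.98% of all and 5 of the 70, and CACGTG in 7.43% of all and 8 of the 70. Both TGACGTCA and CACGTG were in 0.190% of all promoters and in 2 of the 70.

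**Figure D4:**
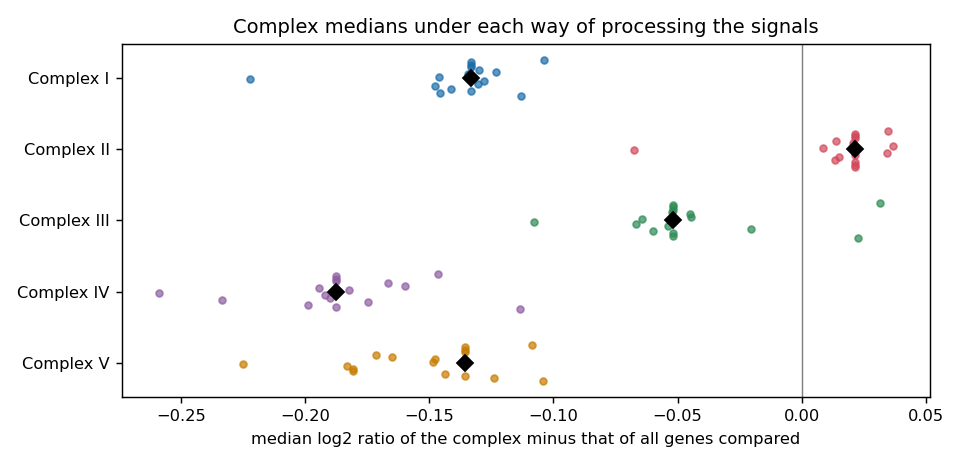
Median log2 ratio of each complex minus the median of all genes, as reported (black diamonds) and under each alternative way of processing (points). Complexes I, IV and V stay under 0 throughout, and complexes II and III lie near 0 and cross it.

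Probes of the same gene could be compared in 15 genes. In 11 of them all probes had the same sign, and the median gap between the highest and the lowest probe was 0.12. COX6B2 alone exceeded 0.5. NDUFA10 followed, with -0.20 on its brighter and 0.19 on its dimmer probe. The median gap of 0.12 was about as large as the offset of 0.13 between the subunits and all genes, and that of NDUFA10, 0.39, was larger.

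Other genes of the chain were read from lists. Assembly factors of complex I, 14 genes, had a median of 0.01 and ran from -0.38 for TIMMDC1 to 0.89 for NDUFAF3, an early assembly factor with 48088 against 25157. The 6 of complex III also had a median of 0.01, from -0.46 for UQCC1 to 0.66 for UQCC3. For complex IV, 18 of 19 measured factors were compared, with a median of 0.05, from -0.93 for SURF1 (3928 against 7257, 2 spots), which acts early in building the catalytic core, to 0.72 for COX20, a chaperone of its subunit COX2. Those of complex II numbered 4, with a median of -0.15, from -0.73 for SDHAF4 to 0.11 for SDHAF2, and those of complex V 3, with a median of -0.06, from -0.13 for FMC1 to 0.09 for ATPAF2. None of the assembly factors passed 2-fold, where 6.15% of all genes did. Of the 28 genes with several compared probes in the lists of assembly factors, carriers, regulators, the TCA cycle and ribosomal proteins, 7 had probes over 0.5 apart, among them UQCC1 (-0.46 to 0.15) and COX20 (0.15 to 0.72).

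The 15 genes for electron carriers and ubiquinone synthesis had a median of -0.22, with 11 under 0 and 4 above it. COQ4, which the ubiquinone synthesis complex needs, was at least 2-fold lower with 502 against 1002 (-1.04, 1 spot), 1 of 15, where 3.41% of all genes were. ETFB, the smaller subunit of the electron transfer flavoprotein, had 15174 against 23098 (-0.65) from 10 spots, and COQ2 was the highest at 0.23. Cytochrome c itself (CYCS) had 0.05 on its brightest probe and -0.03 and -0.54 on the others, the last at 422 against 594. This median stayed under 0 in all alternatives tried, from -0.24 to -0.05.

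Regulators of mitochondrial biogenesis, 15 of 16 compared, had a median of 0.09, and 11 were above 0. PPARGC1B, a coactivator of respiratory genes, was the highest with 446 against 224 (0.95), and TFB1M, a methyltransferase of mitochondrial ribosomal RNA, the lowest at -0.43. NRF1 had 0.01, GABPA 0.07 and YY1 -0.30, TFAM, which packages mitochondrial DNA, had 0.24, and PPARGC1A was not well above background. Enzymes of the TCA cycle, 14 genes, had a median of -0.03. OGDH, of the 2-oxoglutarate dehydrogenase complex, passed 2-fold at dim signals of 83.1 against 33.2 (1.28), 1 of 14 where 2.74% of all genes were higher, and DLST of the same complex was the lowest at -0.46. Mitochondrial ribosomal proteins, 76 genes, had a median of 0.04 with 41 above 0, from -1.39 for MRPL23 (1987 against 5040) to 0.63 for MRPL34. MRPL23 and MRPL24 (6627 against 13084, -1.03) were at least 2-fold lower, 2 of 76, where 3.41% of all genes were. The medians of the TCA cycle, the mitochondrial ribosomal proteins and the assembly factors of all complexes but IV changed sign under at least 1 alternative.

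**Figure D5:**
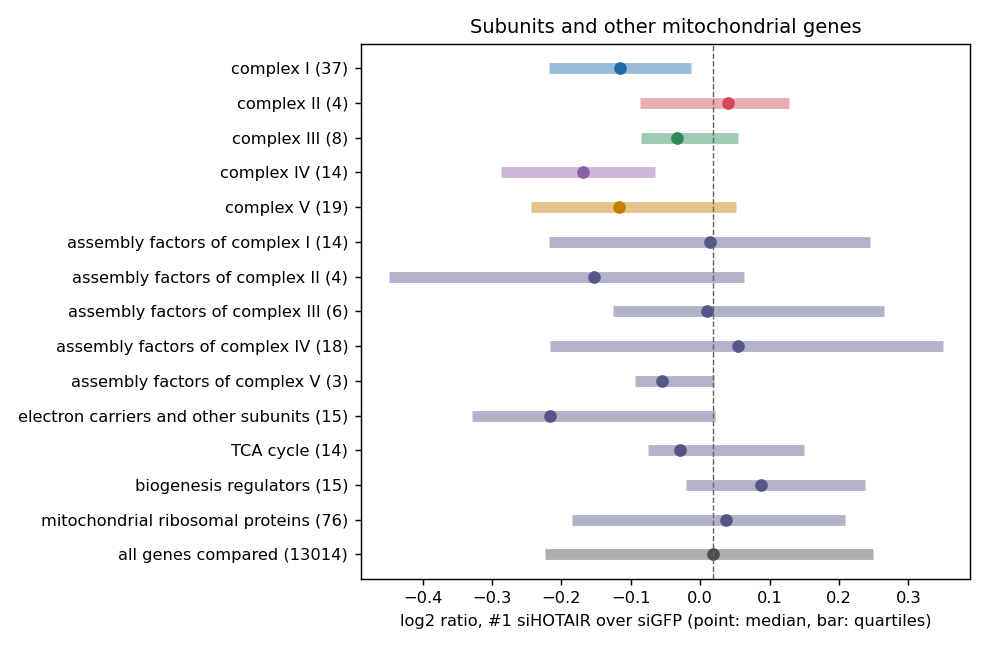
Median (point) and quartiles (bar) of the log2 ratio for the 5 complexes, for lists of other mitochondrial genes and for all genes compared, with the number of genes in brackets. The bars of complexes I and IV lie wholly under the dashed all-gene median, and those of all helper lists cross it. The bars of electron carriers and of complex V assembly factors only just reach past it.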

How the data were processed

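The authors labelled RNA with Cy3, hybridized each sample to 1 array and extracted spots with Agilent Feature Extraction 10.10.1.1, per the labels. The deposited processed signal is an intensity with background subtracted, not normalized between arrays. Here it was taken as log2 minus the 75th percentile of the array, outlier spots (393 and 375) left out, and spots of a probe averaged. Genes were named through RefSeq accessions (GRCh38.p14 table, names only), which named 58.5% of probes. Named genes were the highest and lowest gene of each complex and list, genes past 1.5-fold, core subunits, isoform sets and genes whose probes differ by over 0.5. NDUFB4, NDUFA9 and the genes with 9 or 10 spots were named after their values were seen, as were single helper genes. Members and lists were chosen with earlier results of these data known. The uncorrected signal and normexp (limma 3.58.1, offset 50) used the median of spot pixels. Other alternatives were quantile, spike-in, median and no scaling, the deposited value table, other filters, thresholds and probe rules, and other rows. Both arrays lay on the same slide. Probe sequences were not used, so cross-hybridization with pseudogenes was not tested. The number of arrays limits the precision. Most list genes are given in counts and medians only, and a few items are not reported here.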

Additional observations from a re-analysis of the deposited data

How the results depend on the processing

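ATP5MC1 stayed at least 2-fold higher under the 14 alternatives run for it, and HOTAIR stayed under 0 in its 14 but passed 2-fold in neither of those that changed the background correction by normexp or left it out. No paired analysis was possible because each condition had 1 array, and leaving out a replicate was impossible for the same reason. Counts of probes at least 2-fold higher and lower were 227 and 187 with normexp, 173 and 154 without background correction, 313 and 317 where every spot was well above background on both arrays, 1933 and 1866 without a filter, 358 and 549 outside the first 144 rows, 2050 and 2348 at 1.5-fold and 377 and 411 at 3-fold. With dim signals at their bound they were 572 and 498, and with spike-in scaling 1096 and 735, so that under both, as with normexp, without background correction and without a filter, the higher probes outnumbered the lower ones, the opposite of the main counts of 795 and 989. Without a filter 1 member was lower, COX8C, which was not well above background on either array. Scaling to the spike-in RNA gave medians of 0.0549 for the subunits, 0.0549, 0.21, 0.14, 0.000403 and 0.0524 for complexes I to V, 0.18, 0.0170, 0.18, 0.22 and 0.11 for their assembly factors, -0.0460 for electron carriers, 0.26 for biogenesis regulators, 0.14 for the TCA cycle and 0.21 for mitochondrial ribosomal proteins. This follows from its construction, since it moved all genes alike, to 0.19, and it placed ACTB at 0.15, GAPDH at 0.17 and UQCRC1 at 0.0095. Quantile normalization gave complex III 0.0339. HOTAIR was -1.05 with spike-in scaling, -0.76 with normexp and -0.73 without background correction. The removal of the trend with signal was chosen after seeing the data. Dim signals limit the isoforms COX4I2, COX6A2, COX7A1, COX7B2 and COX8C, and 73 of the 106 member probes, that of ATP5MC1 among them, had a single spot.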

Other observations

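Among the 3084 genes more than 2 log2 units above the 75th percentile, 25 passed 2-fold, and those of the mitochondrial lists were ATP5MC1, MRPL23 and MRPL24, each read from 1 spot. The measured gene nearest to ATP5MC1 on each side in the order of the RefSeq table did not share its ratio. CALCOCO2, on one side, had 166 against 139 (0.21), and UBE2Z, on the other, had 1424 against 1899 (-0.46). These neighbours were looked up after the value of ATP5MC1 was seen.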
